A study of Mus musculus with 6 samples.

Results

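The genes examined were 9 that encode sensors of foreign or misplaced nucleic acid and the proteins that act directly on those sensors: Ddx58, Ifih1, Dhx58, Mavs, Tlr3, Zbp1, Eif2ak2, Adar and Trim25. They were taken by symbol from the table of 24421 genes, and all 9 were found and passed the filter on low counts. The cells were C2C12, an established line of mouse myoblasts that can fuse into myotubes, embedded in a collagen gel anchored to artificial tendons and differentiated there into engineered muscle. In 3 constructs the medium held tumour necrosis factor alpha (TNF-alpha) at 100 ng/mL for 72 h, and 3 others received the vehicle, phosphate-buffered saline, over the same time. The constructs are numbered as biological replicates, but no label says that they came from separate cell batches, so every p-value measures the spread between these constructs. All constructs derive from this single cell line.

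RIG-I-like receptors are helicases in the cytosol that bind double-stranded RNA, a product of viral replication, and pass the signal to the adaptor MAVS on the outer mitochondrial membrane. MAVS then engages the kinases TBK1 and IKK, which switch on interferon and NF-kB target genes. Other sensors act beside this route: TLR3 reads double-stranded RNA in endosomes, ZBP1 binds left-handed Z-form nucleic acid and can start necroptosis, and PKR halts translation. ADAR edits the cell's own double-stranded RNA, which keeps it from being read as foreign. Many of these genes are themselves interferon-stimulated.

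Libraries held 81713008 to 93533748 counts assigned to genes, with 18317 to 18575 genes detected in each. TNF-alpha against vehicle was tested across 15792 genes with edgeR's quasi-likelihood test, with p-values adjusted by the Benjamini-Hochberg method over all of them and a threshold of 0.05. Of all tested genes, 55.5% passed, 27.6% as higher and 27.9% as lower with TNF-alpha. In 64.5% the libraries of the groups did not overlap. All 10 myotube markers had counts in every library, and their summed level was 7951 to 9049 CPM (counts as a rate per 1e6 counts of the library, scaled between libraries by TMM, the trimmed mean of M-values) with TNF-alpha and 12850 to 14670 CPM with vehicle, 9 of them lower and Acta1 not past the test. Of 12 macrophage and monocyte markers, Tyrobp was at 0 in all 6 libraries, Ptprc had at most 4 counts and Adgre1 at most 2. The summed level of that list was 90.1 to 106.7 CPM with TNF-alpha and 14.8 to 15.4 CPM with vehicle, nearly all of it from Cd14 and Cd68. Of the 8 markers of this list that could be tested, 5 rose (Cd14, Cd68, Csf1r, Fcer1g and Lyz2) and 0 fell. Fcer1g had 5 to 9 counts with vehicle and Lyz2 had 9 to 14. From the vehicle libraries alone neither would have passed the filter on low counts, so their calls are no independent results. Csf1r, the receptor of a macrophage growth factor, had 110 to 144 counts with TNF-alpha and 20 to 24 counts with vehicle. The part of these markers in the results on the sensors was not tested.

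Most of the sensor transcripts were higher with TNF-alpha, by modest amounts. Of the 9, 7 rose (77.8%, against 27.6% of all tested genes), 0 fell and 2 were not past the test. Ddx58 rose most, 2.13-fold, followed by Zbp1 and Dhx58 at 1.65-fold and 1.61-fold. Trim25, Mavs, Adar and Eif2ak2 rose 1.31-fold to 1.45-fold. Ifih1 and Tlr3 did not pass. The median log2 fold change of the 9 genes was 0.46, beside 0.00 over all tested genes, and 17.1% of all tested genes changed by more than Ddx58 in either direction. In these bulk libraries, a change in the share of cells that carry a transcript and a change in its amount per cell cannot be told apart.

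**Figure D1:**
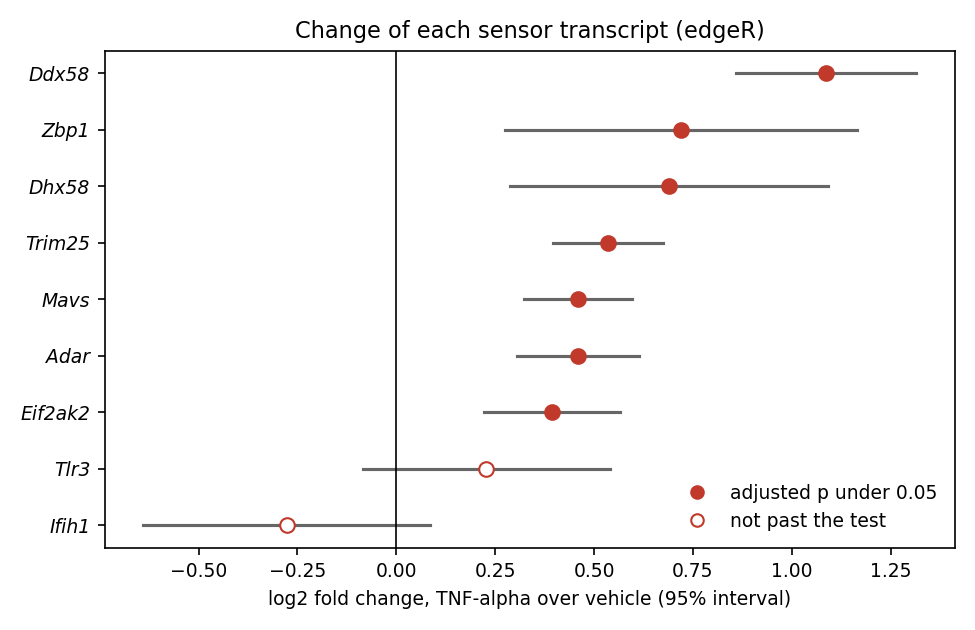
Change of each of the 9 sensor transcripts, as the log2 fold change of TNF-alpha over vehicle with its 95% interval from edgeR, filled where the adjusted p was under 0.05. Ddx58 lies highest at 1.09, and the intervals of Tlr3 and Ifih1 include 0.

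Among the RIG-I-like receptors, Ddx58, which encodes RIG-I, the sensor of short and 5′-triphosphorylated RNA, stood at GRCm38 chromosome 4, 40203773 to 40239828, minus strand. Its level was 42.1, 36.5 and 39.3 CPM in TNF-alpha replicates 1 to 3, against 20.4, 19.1 and 16.0 CPM in vehicle replicates 1 to 3. Every TNF-alpha library was well above every vehicle library. The log2 fold change was 1.09 ± 0.10 (SE, 95% interval 0.86 to 1.31, edgeR adjusted p = 3.4e-05).

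Ifih1 (chromosome 2, 62595798 to 62646255, minus strand) encodes MDA5, a related helicase that reads long double-stranded RNA. It measured 1.64, 1.80 and 1.78 CPM with TNF-alpha and 2.21, 1.87 and 2.24 CPM with vehicle. All 3 TNF-alpha libraries lay below the 3 vehicle libraries, but the gap between the nearest libraries was small. The difference did not pass the test (log2 fold change -0.28 ± 0.16, 95% interval -0.64 to 0.08, edgeR adjusted p = 0.17). The interval of Ifih1 and that of Ddx58 did not overlap. The Ifih1 counts were few, 149 to 206 per library.

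Dhx58 (chromosome 11, 100694884 to 100704271, minus strand) encodes LGP2, a receptor without the signalling CARD domains that tunes the other RIG-I-like receptors. It had 3.25, 2.73 and 2.34 CPM with TNF-alpha and 1.54, 1.77 and 1.85 CPM with vehicle, with no overlap between groups. The TNF-alpha values were spread, highest in replicate 1. Its log2 fold change was 0.69 ± 0.18 (edgeR adjusted p = 0.00939), on 127.5 to 303.5 counts per library.

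The upstream sequences of Ddx58, which rose most, and Ifih1, which did not pass, are shown side by side, from RefSeq on GRCm38.p6, covering 250 bases before to 50 bases after the annotated start. Such 300-base windows were given for 7 of the 9 genes. They were searched on both strands for the core of the interferon-stimulated response element (ISRE, which is GAAA, any 2 bases and GAAA), for a kB-type motif (GGG, any 2 bases and TTTCC) and for the gamma-activated site (GAS, which is TTC, any 3 bases and GAA). Matches of different motifs were allowed to overlap. Of 32851 windows in the reference table, 3.44% held the ISRE core, 1.63% the kB-type motif and 8.3% the GAS motif. Both windows below, read 5′ to 3′ on the minus strand, held a single ISRE core and neither of the other motifs. Capitals mark the core, which lies just inside the transcribed part in both. The Ddx58 window spans chr4:40239776-40240075 and the Ifih1 window chr2:62646206-62646505.
Ddx58: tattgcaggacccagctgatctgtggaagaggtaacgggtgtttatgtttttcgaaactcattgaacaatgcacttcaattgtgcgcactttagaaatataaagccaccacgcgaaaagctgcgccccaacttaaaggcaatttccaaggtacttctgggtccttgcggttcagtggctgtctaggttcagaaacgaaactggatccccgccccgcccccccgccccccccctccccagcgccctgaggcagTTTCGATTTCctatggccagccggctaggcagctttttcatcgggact
Ifih1: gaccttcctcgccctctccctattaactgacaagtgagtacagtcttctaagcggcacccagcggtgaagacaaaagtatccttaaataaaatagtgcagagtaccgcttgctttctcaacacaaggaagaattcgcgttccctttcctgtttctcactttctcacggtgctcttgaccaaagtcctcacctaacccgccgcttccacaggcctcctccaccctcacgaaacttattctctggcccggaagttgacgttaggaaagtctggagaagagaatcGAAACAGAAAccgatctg
The core starts 2 bases after the annotated start in Ddx58, on the opposite strand, and 32 bases after it in Ifih1. A match of these letters describes the window and is not a measured binding site. Both windows held the core, and whether it bears on the change of either gene was not tested. Before the start of Ddx58, GAAA also recurs after 1 base, a spacing that the searched letters miss.

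The composition of the receptor family was compared after dividing each CPM by the gene's merged exon length. Ddx58 made up 83.3%, 83.1% and 85.7% of the length-scaled sum in the TNF-alpha libraries, against 79.6%, 77.8% and 73.0% in the vehicle libraries. Ifih1 made up 2.80%, 3.53% and 3.35% with TNF-alpha and 7.45%, 6.58% and 8.81% with vehicle. Both shares separated the groups completely, and the exact two-sided permutation test gave p = 0.1, the lowest value possible with 3 against 3 libraries (0.15 after adjustment over the 3 receptors). The Dhx58 share was 12.7% ± 1.54 with TNF-alpha and 15.6% ± 2.61 with vehicle (SD, n = 3), overlapping, with an exact permutation p of 0.3. The ratio of Ddx58 to Ifih1 per length was 29.8, 23.5 and 25.6 in TNF-alpha libraries and 10.7, 11.8 and 8.29 in vehicle libraries. The Ddx58 share exceeded vehicle by 7.19 percentage points, and by 5.30 without vehicle replicate 3, the library with the lowest Ddx58 share.

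**Figure D2:**
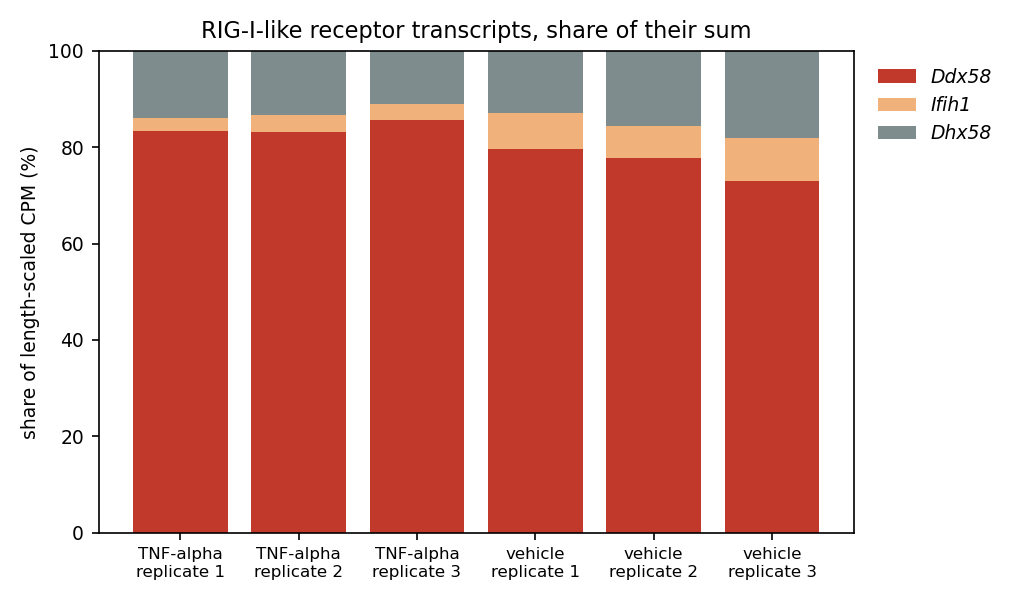
Share of Ddx58, Ifih1 and Dhx58 in the sum of the 3 receptors' length-scaled CPM in each library, in percent. The Ifih1 band is 2.80% to 3.53% in TNF-alpha libraries and 6.58% to 8.81% in vehicle libraries.

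The adaptor and a ubiquitin ligase of this route rose with small spread. Mavs (chromosome 2, 131234063 to 131248025, plus strand), the mitochondrial adaptor shared by RIG-I and MDA5, had 38.0, 36.5 and 37.7 CPM with TNF-alpha and 26.2, 27.6 and 27.8 CPM with vehicle. The groups were far apart relative to their spread (log2 fold change 0.46 ± 0.06, edgeR adjusted p = 2.49e-04). Trim25 (chromosome 11, 88999376 to 89020293, plus strand), a ligase known for attaching K63-linked ubiquitin to RIG-I, had 44.0, 43.7 and 47.3 CPM with TNF-alpha and 31.6, 30.3 and 31.3 CPM with vehicle. It too showed no overlap, with a log2 fold change of 0.54 ± 0.06 (edgeR adjusted p = 1.15e-04). Neither the Mavs nor the Trim25 window held any of the 3 motifs.

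Tlr3 (chromosome 8, 45395665 to 45411080, minus strand), the endosomal receptor of double-stranded RNA that signals through TICAM1, did not pass. Its level was 6.69, 6.25 and 5.26 CPM with TNF-alpha and 5.68, 4.58 and 5.29 CPM with vehicle, and the groups overlapped. TNF-alpha replicate 3 lay within the vehicle range. The log2 fold change was 0.23 ± 0.14 (95% interval -0.08 to 0.54, edgeR adjusted p = 0.19), so a rise of up to 0.54 on the log2 scale is within the interval. The Tlr3 window is shown because it alone among the windows of these genes held the kB-type motif, in capitals, starting 211 bases before the annotated start. It spans chr8:45410331-45410630, minus strand.
Tlr3: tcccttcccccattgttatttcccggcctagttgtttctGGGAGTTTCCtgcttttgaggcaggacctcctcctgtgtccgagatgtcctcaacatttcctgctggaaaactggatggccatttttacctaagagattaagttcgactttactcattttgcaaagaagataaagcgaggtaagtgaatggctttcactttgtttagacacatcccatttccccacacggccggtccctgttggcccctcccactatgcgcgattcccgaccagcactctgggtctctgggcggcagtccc
No ISRE core or GAS motif was in these letters.

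Zbp1 (chromosome 2, 173206612 to 173218923, minus strand) encodes the Z-nucleic acid sensor that recruits RIPK3 for necroptosis. It had 2.20, 1.74 and 2.24 CPM in TNF-alpha libraries and 1.47, 1.07 and 1.23 CPM in vehicle libraries. The groups did not overlap, but TNF-alpha replicate 2 and vehicle replicate 1 were close to each other. The log2 fold change was 0.72 ± 0.20 (edgeR adjusted p = 0.0126), on 100.5 to 206 counts per library. Leaving out TNF-alpha replicate 3 gave an adjusted p of 0.0509, and over all alternatives it ran from 0.0047 to 0.0509.

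Eif2ak2 (chromosome 17, 78852564 to 78882573, minus strand) encodes PKR, the kinase that is activated by double-stranded RNA and phosphorylates eIF2alpha. It had 29.4, 29.1 and 30.0 CPM with TNF-alpha and 24.4, 20.8 and 22.2 CPM with vehicle. The TNF-alpha libraries were nearly level and all above the vehicle libraries (log2 fold change 0.39 ± 0.08, edgeR adjusted p = 0.0021). Its counts carried decimals in all 6 libraries, as when reads are split between features. Its window, chr17:78882523-78882822 on the minus strand, is the third of the 7 genes' windows with an ISRE core. The core starts 18 bases after the annotated start, and the capitals 178 bases before it are a GAS motif.
Eif2ak2: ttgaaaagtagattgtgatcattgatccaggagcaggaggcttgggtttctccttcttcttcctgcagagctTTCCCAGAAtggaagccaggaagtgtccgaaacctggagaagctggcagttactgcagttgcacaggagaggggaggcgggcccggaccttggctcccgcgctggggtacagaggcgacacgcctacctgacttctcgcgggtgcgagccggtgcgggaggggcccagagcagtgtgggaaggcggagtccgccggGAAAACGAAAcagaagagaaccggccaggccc
As in Ddx58 and Ifih1, the core lies in the first transcribed bases.

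Adar (chromosome 3, 89715022 to 89753446, plus strand), the adenosine deaminase of double-stranded RNA, had 73.8, 63.2 and 66.9 CPM with TNF-alpha and 48.7, 49.2 and 50.3 CPM with vehicle. TNF-alpha replicate 1 was highest, and the lowest TNF-alpha library was above all vehicle libraries. The log2 fold change was 0.46 ± 0.07 (edgeR adjusted p = 5.21e-04). Of its merged exon bases, 16.8% overlap exons of Chrnb2, a nicotinic receptor gene on the opposite strand, and whether the counting used strand is not given in the sources used here. Chrnb2 had 3.34 CPM with TNF-alpha and 2.02 CPM with vehicle on average, well below Adar. The counts of both genes carried decimals in 3 libraries. The isoforms of Adar, of which the longer is known to be interferon-inducible, cannot be told apart in gene-level counts. None of its 3 windows matched the letters searched for the ISRE core or the kB-type motif, and 1 held a GAS motif. In that window GAAA recurs after 1 base, a spacing that the searched letters miss. A missing match therefore does not show that such an element is absent.

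**Figure D3:**
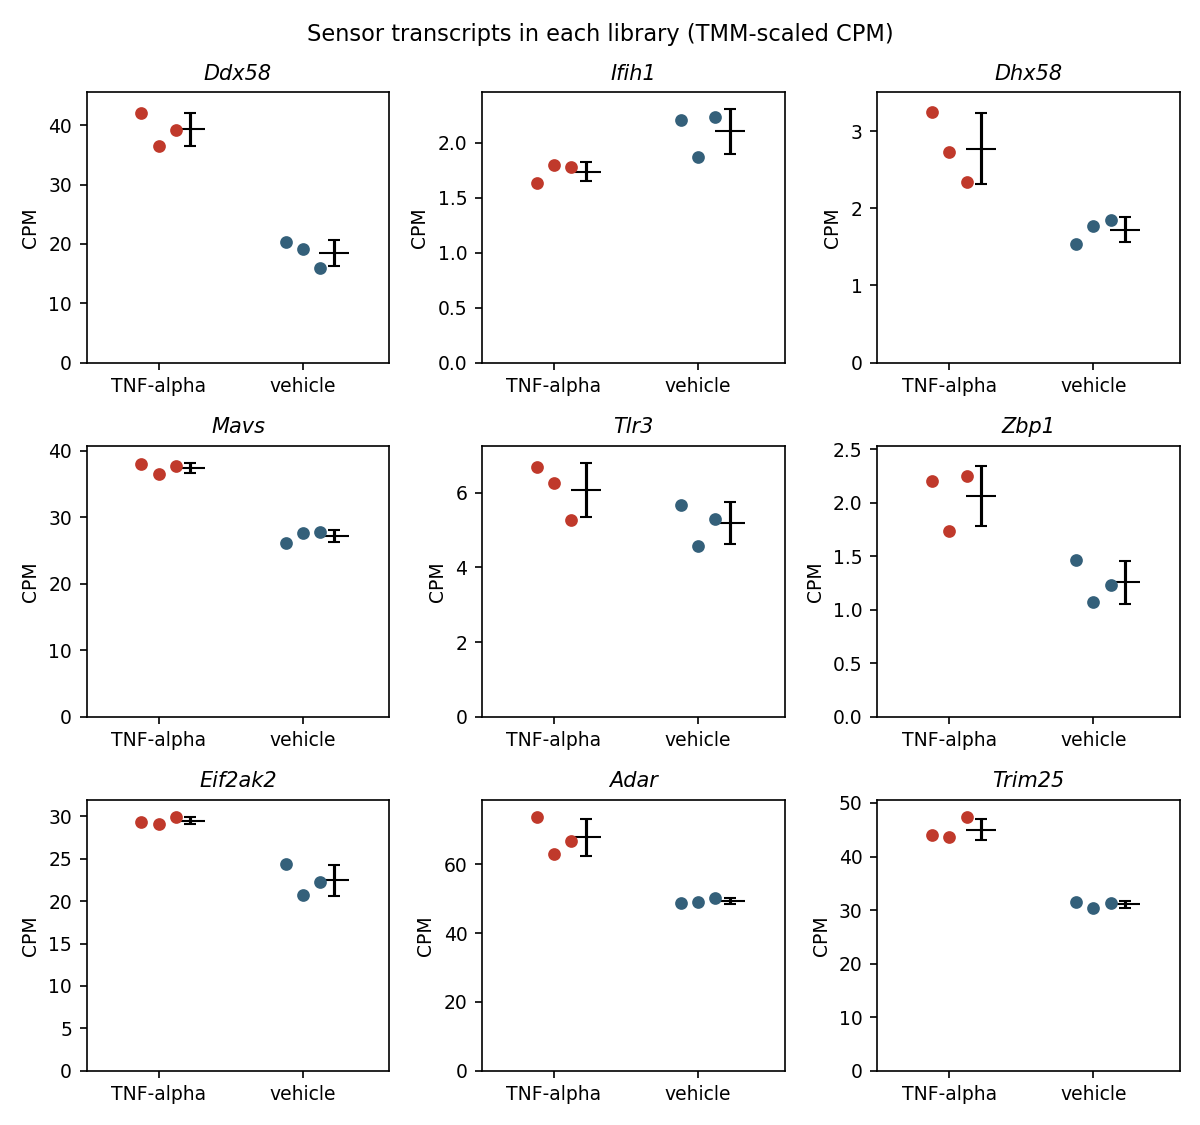
TMM-scaled CPM of the 9 transcripts in each library, TNF-alpha at left and vehicle at right in each panel, with points for libraries and bars for mean ± SD (n = 3). The groups overlap in Tlr3 alone, and Ifih1 is the transcript with TNF-alpha libraries below vehicle libraries.

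The groups did not overlap for 8 of the 9 genes (64.5% of all tested genes). Of these, 7 lay higher with TNF-alpha (32.6% of all tested genes) and Ifih1 lay lower (31.9%).

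Levels per kilobase of merged exons spanned a wide range. Mavs was highest, at 11.2 ± 0.24 CPM per kb with TNF-alpha and 8.13 ± 0.26 CPM per kb with vehicle (SD, n = 3). Adar, Trim25, Eif2ak2 and Ddx58 followed, in the same order in both groups, and then Tlr3, Dhx58, Zbp1 and Ifih1. Ifih1 was lowest, at 0.213 ± 0.011 CPM per kb with TNF-alpha and 0.258 ± 0.025 CPM per kb with vehicle. With TNF-alpha, Eif2ak2 (5.77 CPM per kb) and Ddx58 (5.57 CPM per kb) overlapped, as did Adar and Trim25. With vehicle no neighbours in the order overlapped, and Eif2ak2 (4.39 CPM per kb) was 1.67 times Ddx58 (2.62 CPM per kb). The step from Ddx58 to Tlr3 was the widest in both groups, 4.78-fold with TNF-alpha and 2.64-fold with vehicle. With the longest transcript as length, Ddx58 ranked 3 of 9 with TNF-alpha, and Ifih1 and Zbp1 changed places with vehicle.

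**Figure D4:**
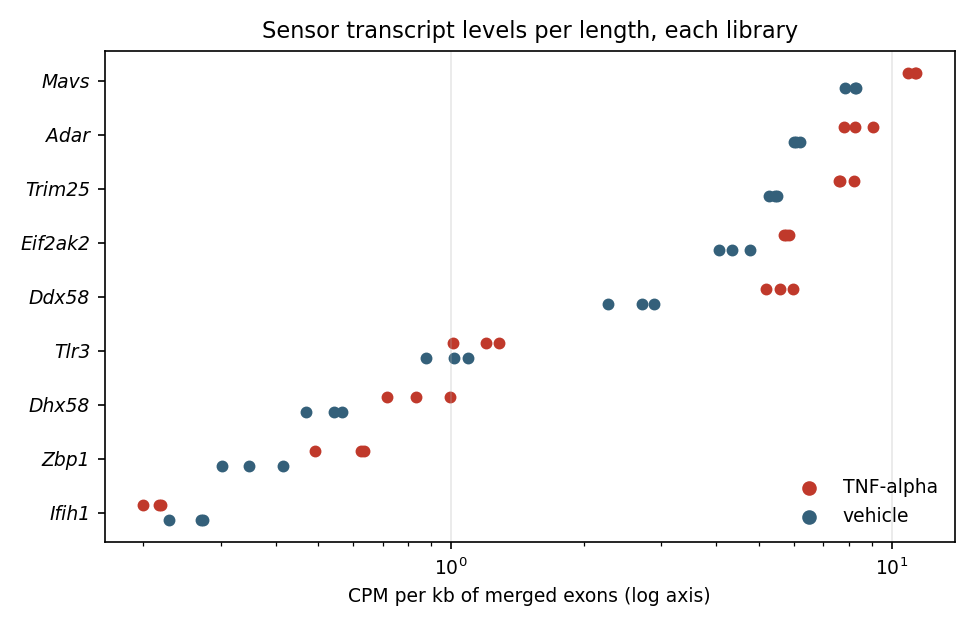
Level of each sensor transcript per kilobase of merged exons in each library, on a log axis, with TNF-alpha above vehicle in each row. Mavs is at the top and Ifih1 at the bottom, where TNF-alpha libraries lie left of vehicle libraries.

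The genes around the sensors were described from 10 lists, with members counted by the same edgeR fit. Among 22 tested cofactors and regulators of RIG-I-like receptors, 8 rose and 4 fell (36.4% and 18.2%, median log2 fold change 0.12). Over all tested genes, 27.6% rose and 27.9% fell. Zc3hav1, encoding the zinc-finger antiviral protein ZAP, had 68.7, 78.5 and 76.5 CPM with TNF-alpha and 41.7, 39.7 and 41.7 CPM with vehicle (log2 fold change 0.86 ± 0.07, edgeR adjusted p = 1.35e-05). Rnf135, encoding Riplet, another ubiquitin ligase of RIG-I, rose by 0.40 ± 0.11 (edgeR adjusted p = 0.013). Rnf5, a ligase that marks MAVS and STING for degradation, fell by 0.34 on the log2 scale (edgeR adjusted p = 0.00106). Leaving out single libraries changed some calls of this list. The Rnf125 fall was lost without TNF-alpha replicate 1 (adjusted p = 0.0865) or 3 (0.119), and without vehicle replicate 1 (0.115), 2 (0.0666) or 3 (0.0611). The rises of Atg5, G3bp1 and Tomm70a were each lost in at least 1 such fit, and Itch rose without TNF-alpha replicate 1 (0.0268).

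Of 16 tested genes relaying the MAVS signal, 9 rose (56.2%, against 27.6% of all tested genes) and 1 fell (6.25%, against 27.9%). Their median log2 fold change was 0.27. The Traf6 rise was lost without TNF-alpha replicate 2 (edgeR adjusted p = 0.0818) or 3 (0.0965), and without vehicle replicate 1 (0.0754) or 3 (0.0558). Traf5 rose without TNF-alpha replicate 1 (0.0468). Ikbke, the inducible kinase that works beside TBK1, had 33.9, 42.3 and 41.7 CPM with TNF-alpha and 9.16, 8.79 and 9.72 CPM with vehicle (log2 fold change 2.09 ± 0.10, edgeR adjusted p = 1.03e-06). All TNF-alpha libraries were several times above vehicle. Tbk1 itself was 76.6 CPM with TNF-alpha and 67.7 CPM with vehicle (0.18 ± 0.07, edgeR adjusted p = 0.0624). It passed with the replicate number as a block (adjusted p = 0.0408) and when vehicle replicate 1 was left out (0.0183), and its highest adjusted p was 0.191. Irf3, the transcription factor that TBK1 phosphorylates, was the gene that fell, at 25.0 CPM with TNF-alpha and 34.8 CPM with vehicle (-0.47 ± 0.08, edgeR adjusted p = 0.00105). Irf7, its interferon-inducible relative, rose, at 8.47, 4.77 and 5.22 CPM with TNF-alpha and 2.26, 1.85 and 2.24 CPM with vehicle (1.54 ± 0.23, edgeR adjusted p = 5.82e-04).

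Of 13 tested endosomal Toll-like receptors and their adaptors, 6 rose and 0 fell (46.2% and 0%, median 0.30). Over all tested genes the shares were 27.6% and 27.9%. Tlr9 is 1 of the 6, and since it had 0 counts in every vehicle library it passed the filter on low counts only through the TNF-alpha libraries, so its call is no independent result. Of the other 12 genes, 5 rose. The Myd88 rise among them was lost without TNF-alpha replicate 2 (edgeR adjusted p = 0.0506) or 3 (0.07). Ticam1, the adaptor of TLR3, rose to 26.96 CPM with TNF-alpha, against 17.5 CPM with vehicle (0.62 ± 0.08, edgeR adjusted p = 1.59e-04). Unc93b1, the chaperone that delivers these receptors to endosomes, rose by 0.32 ± 0.09 (edgeR adjusted p = 0.0184). That call was lost when TNF-alpha replicate 2 (adjusted p = 0.0678), vehicle replicate 1 (0.067) or vehicle replicate 3 (0.0506) was left out, and its lowest adjusted p was 0.00667. Leaving out vehicle replicate 3 also made Ctsb, another lysosomal protease, lower (adjusted p = 0.0263). Ctsl, a lysosomal protease that trims endosomal receptors, rose by 1.04 ± 0.08 (edgeR adjusted p = 1.25e-05). Tlr9, the receptor of unmethylated DNA, had 19 to 23 counts in TNF-alpha libraries and 0 in the 3 vehicle libraries, which is at least 7.06-fold higher when 3 counts are taken as the floor of each library. Tlr7 had at most 10 counts in any library and Tlr8 was at 0 in all 6.

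The genes of cytosolic DNA sensing and of nucleases that clear DNA and RNA hybrids were mixed. Of 20 tested, 3 were higher and 9 lower (15% and 45%, median -0.23), against 27.6% and 27.9% of all tested genes. The sensor cGAS (Mb21d1 in the table) had 6.02 CPM with TNF-alpha and 5.23 CPM with vehicle (0.20 ± 0.11, edgeR adjusted p = 0.16). STING (Tmem173) had 14.3 CPM with TNF-alpha and 14.6 CPM with vehicle (-0.02 ± 0.10, edgeR adjusted p = 0.859). The genes that rose were Ifi203, Ifi204 and Mndal, close paralogs that can share reads, with Ifi204 at 0.74 ± 0.08 (edgeR adjusted p = 9.55e-05). Among those that fell were the 3 subunits of RNase H2, of which Rnaseh2c was not past the test without vehicle replicate 2 (adjusted p = 0.051), and Enpp1, the ectoenzyme known to hydrolyse the STING ligand cGAMP. Enpp1 had 23.6, 38.0 and 28.3 CPM with TNF-alpha and 222.3, 254.8 and 240.1 CPM with vehicle (log2 fold change -3.00 ± 0.18, edgeR adjusted p = 1.44e-05).

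Of the 9 interferon genes of type I and III listed, 5 were at 0 in every library and none had enough counts to be tested. The highest count of any was 17 with TNF-alpha and 10 with vehicle, both of Ifne, and Ifnb1 had a single count, in vehicle replicate 2. Of the 7 tested genes of the receptor relay, 6 rose (85.7%, against 27.6% of all tested genes) and 0 fell (against 27.9%). Their median log2 fold change was 0.47. Ifnar2, a chain of the receptor, rose to 72.5 CPM with TNF-alpha, against 40.2 CPM with vehicle (0.85 ± 0.08, edgeR adjusted p = 4.59e-05). Of the 5 tested OAS and RNase L genes, 1 rose (20%), namely Oasl2 (1.57 ± 0.26, edgeR adjusted p = 0.00106). That count was 2 with no filter on low counts, 3 without TNF-alpha replicate 2, 2 without vehicle replicate 1 and 4 without vehicle replicate 3.

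Interferon-stimulated targets rose in part, 9 of 23 (39.1%, against 27.6% of all tested genes, median 0.14). Ifit2 alone fell (-0.72 ± 0.15, edgeR adjusted p = 0.00547), a share of 4.35% against 27.9%. Among the 9 rises, Usp18 had 8 to 18 counts with vehicle and Ifi44 had 6.05 to 20.05. From the vehicle libraries alone neither would have passed the filter on low counts, so their calls are no independent results. Isg20, an exonuclease, had 13.8, 12.7 and 14.2 CPM with TNF-alpha and 5.61, 5.66 and 6.5 CPM with vehicle (1.19 ± 0.10, edgeR adjusted p = 2.36e-05). Isg15, a ubiquitin-like modifier, had 3.79, 2.39 and 2.46 CPM with TNF-alpha and 1.537, 1.58 and 1.011 CPM with vehicle (1.07 ± 0.25, edgeR adjusted p = 0.00604). In 21 of the 23 targets the highest TNF-alpha library was replicate 1 (39.7% of all tested genes). Among the vehicle libraries the highest was replicate 1 in 8, replicate 2 in 9 and replicate 3 in 6. Without TNF-alpha replicate 1, 8 targets rose and 3 fell, the added falls being Ifit3 and Rsad2. Without vehicle replicate 1 the rises were 6 of 23, with Ifit1, Mx2 and Usp18 not past the test, and without vehicle replicate 3 they were again 6, with Ifit1, Mx2 and Trim21 not past it. Leaving out vehicle replicate 2 gave 7 rises and 2 falls, the added fall being Mx1. Of the 9 sensor genes, 5 were highest in TNF-alpha replicate 1, namely Ddx58, Dhx58, Adar, Tlr3 and Mavs, and leaving it out ended none of the 7 calls. The part of that library in the counts of interferon targets was otherwise not tested.

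Of the 7 tested partners of ZBP1 in cell death, 5 rose (71.4%, against 27.6% of all tested genes) and 0 fell (against 27.9%). Their median log2 fold change was 0.37. Mlkl, the executor of necroptosis, had 49.6, 48.9 and 49.6 CPM with TNF-alpha and 18.1, 14.3 and 16.4 CPM with vehicle (1.61 ± 0.09, edgeR adjusted p = 1.94e-06). Ripk3, the kinase that phosphorylates MLKL, rose by 0.37 ± 0.13 (edgeR adjusted p = 0.0335). The Ripk3 adjusted p was 0.0507 to 0.112 in 7 of 14 alternatives, with the replicate block (0.06), no filter on low counts and 5 of the 6 single libraries left out, and 0.0216 at its lowest. The list's rise count was 3 without vehicle replicate 1 and 3 without vehicle replicate 2, when Ripk3 and Pgam5 were not past the test.

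Around PKR, 6 of 13 tested kinases, regulators and targets rose and 3 fell (46.2% and 23.1%, median 0.19). Over all tested genes, 27.6% rose and 27.9% fell. Ppp1r15a, encoding GADD34, the phosphatase regulator that reverses eIF2alpha phosphorylation, rose by 0.81 ± 0.06 (edgeR adjusted p = 1.59e-05). Dnajc3, encoding the PKR inhibitor P58IPK, had 55.6, 62.4 and 57.5 CPM with TNF-alpha and 109.5, 106.9 and 94.2 CPM with vehicle (-0.82 ± 0.08, edgeR adjusted p = 3.44e-05). The Eif2s1 rise was lost without TNF-alpha replicate 1 (adjusted p = 0.128), 2 (0.0571) or 3 (0.0811), and without vehicle replicate 2 (0.164) or 3 (0.0713). The Prkra fall was lost without TNF-alpha replicate 3 (0.0768) or vehicle replicate 1 (0.0536). Eif2ak4 rose without TNF-alpha replicate 1 (0.0289). Among 12 other genes of RNA editing and double-stranded RNA binding, 3 rose and 4 fell (median 0.05), near the shares over all genes, and the falls were 2 without vehicle replicate 3. Dhx9, a helicase that unwinds double-stranded RNA, fell by 0.52 on the log2 scale (edgeR adjusted p = 1.55e-04) and Stau1, a double-stranded RNA binding protein of RNA transport and decay, rose by 0.22 ± 0.05 (edgeR adjusted p = 0.0088). Adarb1, encoding the editing enzyme ADAR2, had 62.2 CPM with TNF-alpha and 69.3 CPM with vehicle (-0.16 ± 0.09, edgeR adjusted p = 0.157). It passed as lower when TNF-alpha replicate 2 was left out (adjusted p = 0.0351, with 0.406 as the highest over its alternatives).

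**Figure D5:**
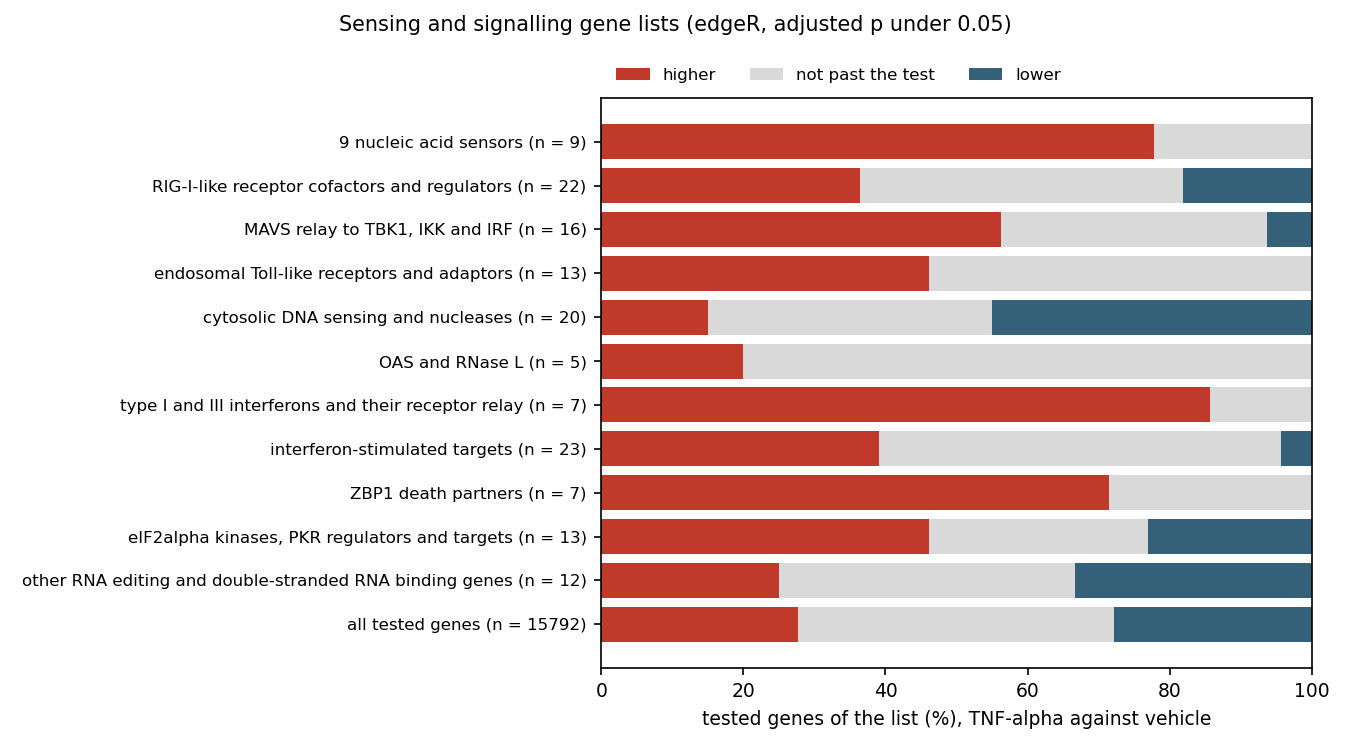
Share of tested genes that were higher, not past the test or lower with TNF-alpha against vehicle, for the 9 sensors, the 10 surrounding lists and all tested genes. The sensors are at 77.8% higher and all tested genes at 27.6% higher, and the list of DNA sensing and nucleases is at 45% lower.

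The genes whose pattern over the 6 libraries was most like a sensor's were found by the root mean square difference of log2 CPM after subtracting the vehicle mean. The direction and size of change of these genes therefore follow from the choice and are no independent results. Nearest to Ddx58 were Sqstm1, an autophagy receptor (0.0447 on the log2 scale), and Zfp654 (0.0547). Nearest to Ifih1 were Spata7 (0.0324) and Ccdc82 (0.034), both past the test as lower, with log2 fold changes of -0.27 and -0.25. The Spata7 call was lost in 7 of its 14 alternatives and the Ccdc82 call in 5. Dhx58 lay closest to Phf11c (0.03) and Gstt3 (0.0801), and Zbp1 to Cbr3 (0.0881) and Atg4c (0.1). The Phf11c call was lost in 5 of 13 alternatives. For 5 members many genes lay within 0.1, 624 for Mavs, 501 for Adar, 404 for Eif2ak2, 368 for Trim25 and 361 for Ifih1. The genes nearest to Ifih1 above are therefore not distinctive, and those nearest to the others, such as Zfp142 and Fam104a for Mavs, Agpat1 and Eif5 for Adar, Txn1 and Tinf2 for Eif2ak2, and Lemd2 and Fhdc1 for Trim25, are not distinctive either. Zik1 and Mitd1 were nearest to Tlr3, and neither passed the test.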

How the data were processed

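The table deposited by the authors holds estimated counts per gene: 20.1% to 21% of each library's values have decimals. The submitters' processing notes name mm10 and GRCm38, and as tools TopHat2 2.1.1, Bowtie2 2.3.5.1, featureCounts of Subread 2.0.0 and DESeq2, with roles, counting options and use of strand not given in the sources used here. Libraries were stranded, polyadenylated and paired-end, per the labels' protocols. Each of the 6 columns was matched to its sample by library name.

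Counts were rounded to whole numbers, in place of the whole counts that the plan assumed for the edgeR test. Genes were filtered with filterByExpr, scaled with TMM and tested with the quasi-likelihood test of edgeR 4.0.16 (R 4.3.3, glmQLFit with robust estimation, group as the only term). Standard errors come from the F statistic. The biological coefficient of variation was 12.1%. Counts of same-group libraries differed beyond counting noise (chi-square over its degrees of freedom 23.1 to 70.6), so each counted as 1 sample. Lengths and positions are from GENCODE M21 on GRCm38. Shares used exact permutation tests in SciPy 1.17.1. The procedure was tested on simulated counts. Alternatives were 2 other scalings, 2 filters, DESeq2 1.42.0, limma-voom (limma 3.58.1), no robust estimation, a replicate block, leaving out each library, and other lengths.

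The members, lists and tests were chosen with earlier results of these data known. Named genes were the members, fixed genes, the gene with the smallest p in each direction of each list, and the 2 genes most like each member. Ifi203, Mndal, Tlr7, Tlr8, Tlr9, Pgam5, Ifit1, Ifit3, Mx2, Usp18, Ifi44, Trim21, Rsad2, Mx1, Chrnb2, Ifne, Ctsb, Rnf125, Atg5, G3bp1, Tomm70a, Itch, Eif2s1, Prkra, Eif2ak4, the RNase H2 subunits and the cell markers were named after their values were seen.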

Additional observations from a re-analysis of the deposited data

How the results depend on the processing

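In 14 alternatives to the edgeR test, 7 of the 9 sensor genes rose in all but 1, and 0 fell in any. Without TNF-alpha replicate 3 the count was 6, because Zbp1 was not past the test there (log2 fold change 0.65, adjusted p = 0.0509; without 1 library its log2 fold change ranged from 0.61 to 0.84). Ddx58 stayed between 0.99 and 1.16 on the log2 scale. Ifih1 stayed negative, between -0.36 and -0.23, with adjusted p from 0.124 to 0.316, and Tlr3 stayed between 0.14 and 0.32 with adjusted p from 0.115 to 0.455. No pairing by replicate number was evident, as the deviations of same-numbered libraries from their group means correlated at 0.0428, -0.0454 and -0.114. Such correlations cannot show whether same-numbered constructs were made together, and no label says so. With the replicate block 7 sensor genes rose, and 4242 genes rose and 4244 fell over the table, against 4366 and 4403 without it. Leaving out 1 library gave 3674 to 4146 genes higher and 3747 to 4317 lower. With the longest transcript in place of merged exons, Ddx58, Trim25 and Eif2ak2 ranked 3, 4 and 5 in TNF-alpha libraries, and Ifih1 and Zbp1 ranked 8 and 9 in vehicle libraries, which follows from the lengths used. The log2 fold change of Tmem173, -0.02, ranged from -0.1178 to 0.0232 when 1 library was left out, with a positive sign in 3 of the 6 cases. Counts of 100.5 to 303.5 per library limit the precision for Ifih1, Dhx58 and Zbp1.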

Other observations

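Ifit1, Mx2 and Usp18 were among the interferon-stimulated targets that passed as higher, with wide spread between the TNF-alpha libraries. Ifit1, an RNA-binding antiviral protein, had 9.60, 3.36 and 3.45 CPM in TNF-alpha replicates 1 to 3, against 1.14, 2.32 and 1.54 CPM in vehicle replicates 1 to 3. Mx2, an antiviral GTPase, had 6.025, 1.89 and 1.65 CPM with TNF-alpha and 0.985, 1.335 and 1.11 CPM with vehicle. Usp18, which removes ISG15 from proteins, had 2.515, 0.338 and 0.80 CPM with TNF-alpha and 0.156, 0.192 and 0.087 CPM with vehicle. The Usp18 call is no independent result, since its vehicle libraries alone would not have passed the filter on low counts. In all 3 genes TNF-alpha replicate 1 was the highest library, and the groups did not overlap. All 3 calls held when any 1 TNF-alpha library was left out. The Ifit1 call was lost without vehicle replicate 1 (edgeR adjusted p = 0.0822) and without vehicle replicate 3 (0.0798). The Mx2 call was lost without vehicle replicate 1 (0.138), replicate 2 (0.087) and replicate 3 (0.114), and the Usp18 call without vehicle replicate 1 (0.051).

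Markers of other cell types gave summed levels of 4.81 to 6.48 CPM with TNF-alpha and 4 to 4.94 CPM with vehicle for dendritic cells, and 1.32 to 1.65 CPM with TNF-alpha and 2.65 to 3.76 CPM with vehicle for endothelial cells. Most of the endothelial sum with vehicle was Tek, which fell, at 0.61 CPM with TNF-alpha and 2.45 CPM with vehicle. Pecam1 lay higher, at 0.39 CPM with TNF-alpha and 0.23 CPM with vehicle, but did not pass the test. The 6 fibroblast markers summed to 10440 to 11510 CPM with TNF-alpha and 8485 to 9003 CPM with vehicle, with 2 higher and 3 lower by the edgeR test. The higher sum came from Dcn, at 6022 CPM with TNF-alpha and 2029 CPM with vehicle. Pdgfra also rose, at 59.0 CPM with TNF-alpha and 38.8 CPM with vehicle. Col3a1 (4606 CPM with TNF-alpha and 6258 CPM with vehicle), Col1a1 and Lum fell, and Thy1 had too few counts to be tested.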
